A study of Mus musculus with 3 samples.

Results

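In MIN6 cells, 2108 positions in the nuclear genome served as 5′-starts of reads that were mostly 14 to 18 nt long, shorter than mature miRNAs. A 5′-start was the chromosome, strand and position of the first base of a read, and a start was included if it held at least 100 reads over the 3 libraries together, lay outside chrM, and had a most abundant read length of 14 to 18 nt. These were 33.9% of the 6216 starts with that number of reads, beside 2138 starts with mostly 19 to 25 nt reads and 1970 starts with mostly 26 to 41 nt reads. The starts were thus chosen by their read number and read length, so both are described and neither was tested. Just inside the minimum lay chr14:55173107 and chrX:84483704 with 100 reads each, and just outside it lay chr7:125992713 with 99.8 reads and chr17:46391591 with 99.7 reads.

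MIN6 is an established mouse line of insulinoma origin that keeps the insulin secretion of pancreatic beta cells. The cells of all 3 biological replicates were grown in DMEM with 25 mM glucose and 10% heat-inactivated fetal bovine serum, and no second condition was analysed here. Total RNA with an RNA Integrity Number above 9 was made into libraries with the Illumina TruSeq small RNA kit and sequenced on a HiSeq. The libraries held 9269795, 10816006 and 10218743 mapped reads, and a start without reads in the smallest library could still be present at up to 0.324 RPM, the reads in 1000000 mapped reads. The start with the most reads in the whole data was that of Mir375, a hairpin known for its abundance in beta cells, at 334275, 357402 and 371065 RPM, and the highest of the 2108 starts held 0.761% as many reads. That highest short start, chr10:82456768, held 1 share of a read divided among 3 loci. Over these loci the read had 8612, 7073 and 8474 RPM.

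Small RNA libraries capture any RNA end with a 5′-phosphate and a 3′-hydroxyl, and so they contain fragments of tRNA, rRNA, snRNA and snoRNA beside miRNAs. Mature tRNAs carry a CCA at the 3′-end that is added after transcription and is absent from the nuclear gene, and tRNA and 5S rRNA genes exist in many near-identical copies, so that a short fragment of them can align to many loci equally well. Within miRNA hairpins, Dicer releases the loop between the 5p and the 3p arm, and the loop is usually degraded.

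Reference RNAs that matched short reads are shown first, with those of the highest level in each kind of locus. The RNAs are those of the GRCm38 annotations of GENCODE and RefSeq, a tRNA being shown with the CCA added to the gene sequence. The leading read is the most abundant alignment at the most abundant length of a start. Capitals mark where the leading read of the starts with the most reads in each RNA was placed. All bases shown are those of the annotation, so a base in capitals need not have been resolved in the read. For Gm42418, only bases 783 to 876 of its 1831 nt are shown.
n-TPtgg2: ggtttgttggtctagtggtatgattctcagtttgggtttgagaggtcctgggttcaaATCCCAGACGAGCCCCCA
n-TVcac9: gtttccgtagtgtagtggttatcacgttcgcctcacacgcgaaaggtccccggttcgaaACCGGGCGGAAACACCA
n-TAagc16: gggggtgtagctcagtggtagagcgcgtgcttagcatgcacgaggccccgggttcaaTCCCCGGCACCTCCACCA
n-TGccc7: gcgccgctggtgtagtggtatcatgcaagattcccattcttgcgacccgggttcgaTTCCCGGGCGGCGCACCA
n-R5s101: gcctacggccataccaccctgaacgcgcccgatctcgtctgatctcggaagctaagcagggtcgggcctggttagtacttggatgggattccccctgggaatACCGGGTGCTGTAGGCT
Gm24265: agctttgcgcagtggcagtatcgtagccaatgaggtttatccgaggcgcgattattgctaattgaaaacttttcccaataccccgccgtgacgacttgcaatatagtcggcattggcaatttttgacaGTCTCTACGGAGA
Gm42418: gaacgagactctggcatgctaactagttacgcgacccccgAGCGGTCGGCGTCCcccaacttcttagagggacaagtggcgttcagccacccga
Snord99: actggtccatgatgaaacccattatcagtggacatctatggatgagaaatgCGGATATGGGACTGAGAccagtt
Mir182: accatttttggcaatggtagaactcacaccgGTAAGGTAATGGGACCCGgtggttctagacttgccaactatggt
Mir21a: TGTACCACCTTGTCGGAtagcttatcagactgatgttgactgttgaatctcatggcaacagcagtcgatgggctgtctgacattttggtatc

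In the 4 tRNAs, n-R5s101 and Gm24265 the short read lay at the 3′-end of the RNA. In Mir182 it filled the loop between the arms, and in Mir21a it lay before the 5p arm.

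The most abundant short reads matched none of the 6134 reference RNAs. For such reads the alignments give some of the bases, because every recorded mismatch names a base that was read and excludes it from the genome at that position. Reads with a common 3′-end were joined into families, as described below, and the reads of family 2 are shown because they were exact and differed between libraries. Resolved bases are in capitals and an unresolved base is n. The sequence of family 1, the family with the most reads, is not shown.
family 2, 14 nt: CnACGnTCCCnTGG
family 2, 15 nt: nCnACGnTCCCnTGG
family 2, 16 nt: CnCnACGnTCCnnTGG
family 2, 17 nt: CCnCnACGnTCCnnTGG

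The longer reads extended the shorter ones at the 5′-end, and the resolved bases at the 3′-end were the same. The mature 5.8S rRNA was among the reference RNAs only as a diverged copy, 19 nuclear tRNA entries were used, and oligonucleotides of the library kit were not compared.

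The RPM given below for a read is the sum of all reads, of every length, from the starts at which it was the leading read. The starts held 6.89%, 6.51% and 7.29% of the mapped reads in replicates 1, 2 and 3, a mean of 6.89% ± 0.390 (SD, n = 3). The counting error was small beside the spread between libraries, the 95% Wilson interval of replicate 1 being 6.87% to 6.90%. Reads of 14 to 18 nt outside chrM made up 9.00% ± 0.424 of all mapped reads, and the starts held 72.9% ± 0.791 of them. Of the reads at the starts, 95.2% ± 0.122 were 14 to 18 nt long. A typical start was low, with a median of 257 reads or 8.49 RPM, and 308 starts had 1000 or more reads. The 29 starts with 10000 or more reads held 44.1% of all reads at the 2108 starts.

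The libraries resembled each other at most starts. The coefficient of variation of RPM over the libraries had a median of 13.5%, beside 12.5% at the starts with 19 to 25 nt reads. The most abundant length was the same in every library for 1804 starts (85.6%), and it was 14 to 18 nt in every library for 1919 starts (91.0%). Replicate 1 had the highest RPM at 1014 starts (48.1%), replicate 3 at 756 and replicate 2 at 338. All 3 libraries had reads at 2021 starts.

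The starts were spread evenly over the 5 lengths, whereas their reads peaked at 15 and 17 nt. There were 374 starts with mostly 14 nt reads, 435 at 15 nt, 416 at 16 nt, 447 at 17 nt and 436 at 18 nt, so that 41.8% of the starts were at 15 or 17 nt. The starts at 15 nt held 31.6%, 28.8% and 29.7% of the reads in replicates 1, 2 and 3, and the starts at 17 nt held 27.3%, 25.3% and 25.4%. The starts at 14, 16 and 18 nt held 11.4% ± 1.08, 16.8% ± 2.10 and 15.8% ± 0.841 (SD, n = 3). In every library 15 nt was highest and 17 nt second. Together, the starts at 15 and 17 nt held 56.0% ± 2.47 of the reads.

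The peak at 15 nt was not seen once 1 group of reads was left out. Starts were joined into a 3′-end family where their leading reads were the same read at several loci, or ended at the same base of a locus. There were 596 such families, and 319 of them had a single start. The family with the most reads, family 1, had 40 starts and held 34.3% of the reads, and 54.4% ± 3.51 of its reads were at starts of 15 nt and 34.1% ± 1.17 at starts of 17 nt. Without it, the shares at 14 to 18 nt were 15.6%, 17.04%, 22.1%, 21.8% and 23.4%. Without family 2 as well, they were 12.8%, 15.8%, 19.6%, 24.7% and 27.1%, and in every library the share increased with each further base of length. Without the 10 families with the most reads, the shares were 16.1%, 18.7%, 20.5%, 23.04% and 21.7%, with 17 nt highest in every library, and in replicate 2 the share at 15 nt (21.1%) was above that at 16 nt (20.2%). The families were left out after their values were seen.

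**Figure D1:**
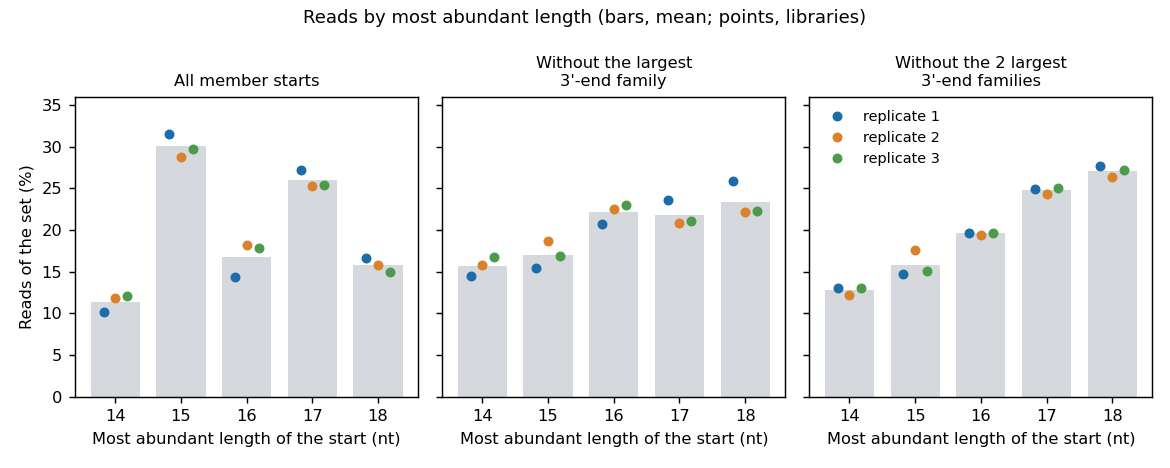
Share of the reads (y axis, %) at starts of each most abundant length (x axis, nt), for all starts, without the 3′-end family with the most reads, and without the 2 families with the most reads. Bars are means over the libraries and points are the 3 libraries; the mean at 15 nt is 30.02% for all starts and 15.8% without the 2 families.

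Family 1 was the group with the most short reads and was read with a mismatch almost everywhere. It was not compared with the mature 5.8S rRNA, so whether it is a fragment of an rRNA, which would raise the share of rRNA given below, was not tested. It summed to 25937, 20058 and 25394 RPM, a mean of 23796 ± 3249 (SD, n = 3), and was lowest in replicate 2. This sum includes chr16:19911775, with 1496 RPM in replicate 1, and not chr1:54185737, with 1132 RPM in replicate 2. Whether chr1:54185737 holds reads of family 1 was not tested. Of the reads of family 1, 99.7% were aligned with a mismatch, and 0.327% were exact. The leading 15 nt read was divided among 10 loci, among them chr11:83254034 and chr10:82456770, and reached 13615, 10305 and 13610 RPM over them. Of these loci, chr18:89444314 had only 4 reads in replicate 1, and chr15:12819058 only 17 in replicate 2. Starts elsewhere with close values in 1 library, given below, are not in these sums. The 3 sums therefore need not cover the same part of the read. The mismatch lay at position 2 of the read at 1 of the loci, at position 10 at 3 loci, at position 13 at 4 loci and at position 15 at 2 loci. No locus therefore held the read without a mismatch, and the exact share at each was 0.0289% to 2.60%. The leading 17 nt read was divided among chr10:82456768, chr4:149462433 and chr6:113509034, at 8612, 7073 and 8474 RPM over them, and it ended at the same base as the 15 nt read at these loci. An 18 nt read that started 1 base earlier, at chr10:82456767, had 397, 318 and 391 RPM. Reads of 19 nt or more that ended at the same bases numbered 164.5 beside 716869 reads of the family, so that almost no longer read shared this 3′-end.

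Among the 10 families with the most reads, family 2 differed most between the libraries. It was not compared with oligonucleotides of the library kit, so whether it is RNA of MIN6 cells was not tested. Its 11 starts summed to 3026, 8135 and 9474 RPM, with replicate 1 below both others. Of its reads, 96.5% were exact. A 16 nt read at chr11:54148594 had a single locus and 1048, 2984 and 3464 RPM, a 14 nt read at 5 loci, among them chr7:27277679, had 1005, 2570 and 2983 RPM, and a 15 nt read at 2 loci, among them chr8:9220896, had 736, 1943 and 2325 RPM. A 17 nt read at chr11:54148595 had 160, 424 and 480 RPM. Replicate 1 was lowest at each of the 4 lengths, and each length kept a like share of the family in the libraries, such as 33.2%, 31.6% and 31.5% at starts of 14 nt. Only 8 reads of 19 nt or more ended at the same bases. What the libraries differed in was not given in the labels, and its part in this difference was not tested.

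Families 1 and 2 together held 44.5% of the reads at the 2108 starts, and the 10 families with the most reads held 60.5%. Besides these, 3 of the most abundant reads also matched no reference RNA. A 15 nt exact read at chr11:36482061 had 599, 374 and 337 RPM, a 14 nt exact read at chr15:80501785 had 553, 398 and 254 RPM, and a 17 nt read with a mismatch at chr12:100241998 had 325, 279 and 313 RPM. The first and second were highest in replicate 1, and the third differed little between libraries.

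At some loci nearly all reads came from 1 library. At 45 starts, the RPM of 1 library was 10 or more times that of each of the others, and the leading read had a mismatch at 27 of them. They held 1.99% of the reads. The start chr16:19911775, with 15 nt reads of family 1, had 1496, 1.72 and 1.89 RPM, chr1:54185737, also 15 nt, had 3.35, 1132 and 2.41 RPM. Both were aligned with mismatches. At a further 66 starts 1 library was 10 or more times below each of the others, and at 40 of these the leading read had a mismatch. One of them was the 16 nt start chr4:39893734, also aligned with a mismatch, with 696, 0 and 288 RPM. The family 1 start chr4:149462435, also 15 nt, held 13845 reads in replicate 1 and 12218 in replicate 2. Close to these were the 13865 reads of chr16:19911775 in replicate 1 and the 12239 reads of chr1:54185737 in replicate 2. The family 1 start chr15:12819058 had 13857, 17 and 13744 reads, and chr18:89444314 had 4, 12218 and 13737 reads. Whether the same reads were placed at other loci in the other libraries was not tested.

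**Figure D2:**
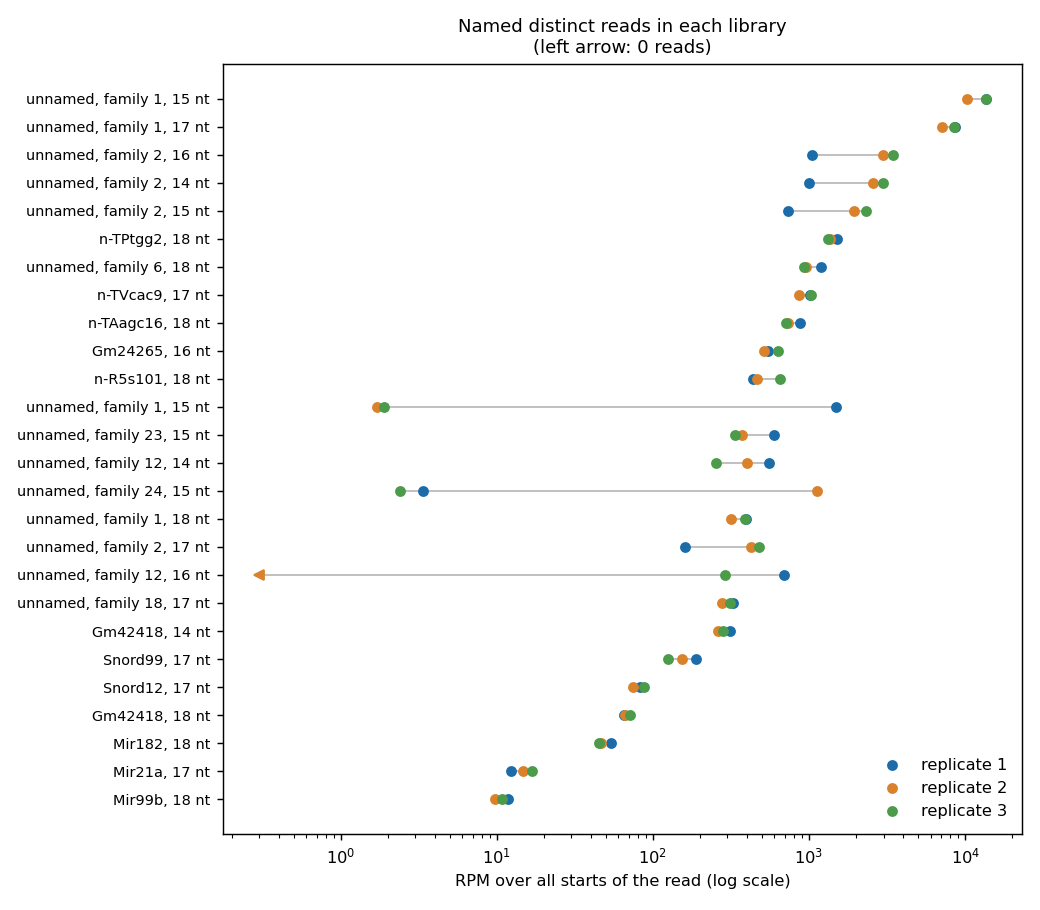
RPM (x axis, log scale) of the most abundant distinct reads over all their starts, 1 point per library, with the RNA or the 3′-end family and the length on the y axis; a left arrow marks 0 reads. Most reads have 3 points close together, the family 2 reads are lowest in replicate 1, and 3 reads without a reference RNA have 1 library far from another.

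Short reads could seldom be placed at a single locus. Values that were whole numbers within 1e-06 in every library, as a read with 1 locus gives, made up 17.1% ± 0.661 of the reads at the 2108 starts, 88.9% ± 0.185 at the starts of 19 to 25 nt and 44.6% ± 2.70 at those of 26 to 41 nt. The ranges of the libraries did not overlap between the 3 sets, at 16.4% to 17.6%, 88.7% to 89.0% and 42.5% to 47.7%. A divided read can also give a whole number, so this share is not an exact count of single-locus reads. From the division of the leading reads, 426 starts had a leading read with 1 locus, 632 with 2 to 5 loci, 813 with 6 to 10, 193 with 11 to 20 and 40 with 21 or more. For 4 starts no number of loci up to 200 could be read from the values. The starts with 2 to 5 and with 6 to 10 loci held 40.2% ± 1.78 and 39.3% ± 2.31 of the reads.

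The 2108 starts are therefore fewer RNAs than positions. Leading reads of the same length and with compatible bases were counted as 1 distinct read if their values were equal to 4 decimals in at least 2 libraries and, where both loci had the read in the remaining library, within 0.001 reads plus 1e-05 of the value there. There were 903 of them. Of these, 330 had 2 or more starts and accounted for 1535 starts (72.8%), and the most starts of 1 distinct read was 18. Copies of 1 read are not independent, and percentages of starts count such reads several times. Counted once each, 41.2% of the distinct reads were 15 or 17 nt, beside 41.8% of the starts.

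The reads also differed in how they were aligned. Exact alignments made up 31.3%, 38.5% and 37.0% of the reads at the 2108 starts, a mean of 35.6% ± 3.82, beside 75.3% ± 0.219 at the starts of 19 to 25 nt. Reads with a mismatch made up 44.9% ± 3.03 and 23.7% ± 0.241. Reads without a mismatch that were aligned only in the second stage made up 19.5% ± 0.796 and 1.02% ± 0.0630. That stage aligned the reads that the first stage had not placed to windows around the placed reads. The first stage had a limit on the number of loci of a read, and why it had not placed these reads was not tested. From their division, the leading reads of this kind of n-TAagc16, n-TPtgg2, n-TVcac9 and n-R5s101 had at least 3, 4, 10 and 10 loci. A recorded mismatch of the last base, as added bases can give, was less common at the short starts, at 6.51% ± 0.431 against 15.4% ± 0.377. The leading reads of n-TPtgg2, n-TVcac9 and n-TAagc16, which were placed up to the added CCA, were aligned in the second stage without a recorded mismatch. Their last 3 bases were left out of the match, so the CCA was not itself read from the alignments. Any added bases there are not in this share, so it does not measure all added bases. For each of these shares the ranges of the libraries did not overlap between both sets. No test was made because the rule that chose the starts by length also acts on the alignment. The low exact share of replicate 1 went together with its low level of family 2, which was almost all exact.

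**Figure D3:**
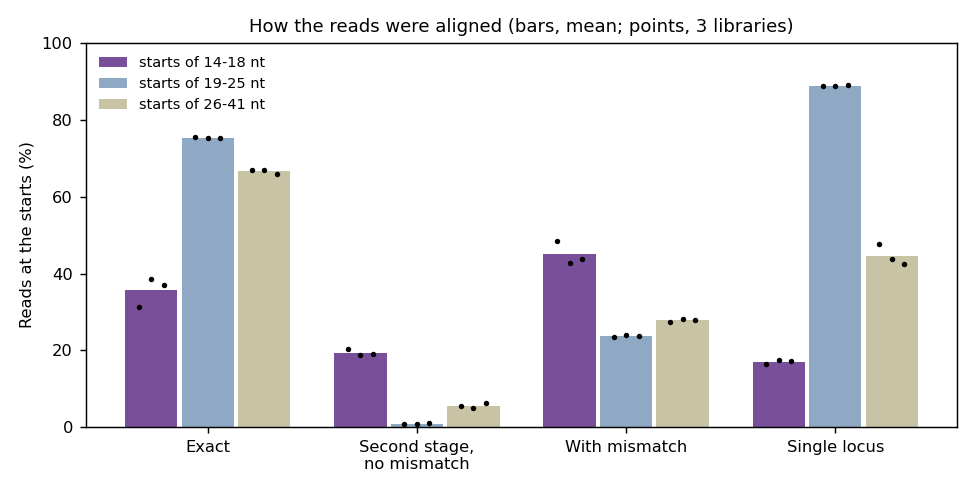
Share of reads (y axis, %) that were exact, aligned in the second stage without a mismatch, aligned with a mismatch, or at a single locus, at starts of 14-18, 19-25 and 26-41 nt. Bars are means and points are the 3 libraries; single-locus reads are 17.1% at the short starts and 88.9% at those of 19-25 nt.

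Short reads from neighbouring starts often ended together. The leading reads of 1193 starts (56.6%) ended at the same base as that of another start, and at 32 3′-ends all 5 lengths from 14 to 18 nt were present, each with its own start. Within 60 nt of another start on the same strand lay 1507 starts, which formed 418 places. At 585 starts (27.8%), the reads of 19 nt or more that ended at the same base were as many as the reads of the start or more, while 598 starts had no such read. At 795 starts no read of 19 nt or more began, and the rule on length limits how many such reads a start could hold. At a start, the most abundant length held a median of 77.4% of the reads, and at 808 starts it held 90% or more.

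A reference RNA matched, with no excluded base, at 466 starts (22.1%) that held 15.4% ± 0.271 of the reads. Such a match names an RNA compatible with the known bases and does not settle where the reads came from. Of these, 339 were named from the bases around the locus on the same chromosome and strand, 70 from the bases of the read and 57 from an RNA already placed over the same bases. The names cover 227 starts in rRNA, 120 in tRNA, 61 in snoRNA or scaRNA, 36 in miRNA hairpins, 19 in snRNA and 3 in other small RNAs. The remaining 1642 starts (77.9%) held 84.6% ± 0.271 of the reads. No name therefore means that no reference RNA used here matched, and gives nothing on the origin of the read.

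**Figure D4:**
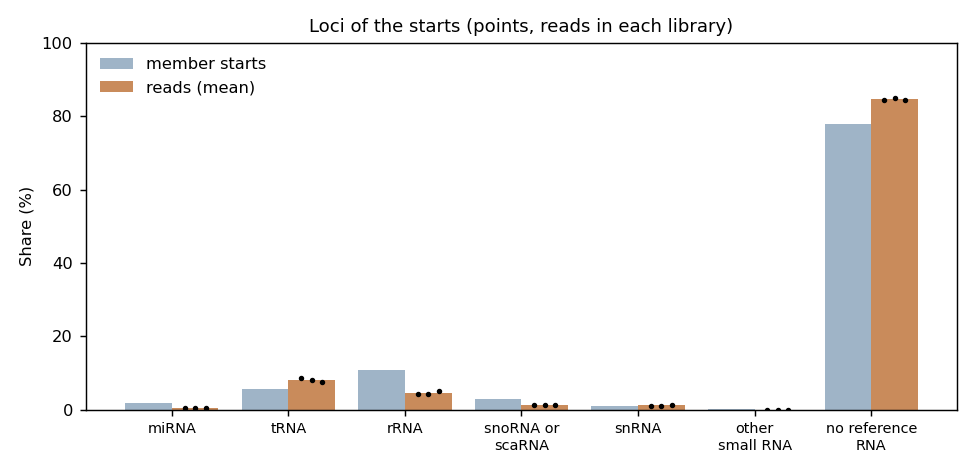
Share of the 2108 starts and of their reads (y axis, %) in each kind of locus (x axis), with the reads as mean (bar) and as the 3 libraries (points). Starts without a matching reference RNA hold 84.6% of the reads, those in tRNA 8.08% and those in rRNA 4.49%.

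Fragments of tRNA were the largest named source by reads, at 8.63%, 7.997% and 7.61% of the reads at the 2108 starts. Of the tRNA starts, 20 were named at the locus, 52 from the read and 48 from an RNA already placed. Of the 227 rRNA starts, 210 were named at the locus. The order of the kinds of locus under the stricter match was not examined. The tRNA starts matched 7 tRNA entries. At 100 of the 120 starts the leading read was placed up to the last base of the tRNA with the CCA added. The last 3 bases of second-stage reads gave no information in this match. For those reads the CCA was thus taken from the reference and not read. These 100 starts held 93.0% of the tRNA reads, while 11 starts lay at the first base of a tRNA. tRNA reads were exact in 7.59% only, and 2.67% had a single locus.

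The proline tRNA n-TPtgg2 was the highest, with 2089, 1864 and 1853 RPM over 32 starts, followed by the valine tRNA n-TVcac9 with 1868, 1574 and 1855 RPM over 31 starts. The values of these tRNAs overlapped between libraries. The alanine tRNA n-TAagc16 had 1067, 882 and 857 RPM, below both in every library. The serine tRNA n-TSaga9 had 354, 379 and 420 RPM, and the glycine tRNA n-TGccc7 had 352, 336 and 363 RPM, and the former was higher in every library, although the ranges of the libraries overlapped. The serine tRNA n-TSgct5 had 138 ± 13.0 RPM and the arginine tRNA n-TRtcg5 had 54.9 ± 9.40 RPM (SD, n = 3). Each of these values is a sum over the starts that matched the entry, and other genes with the same 3′-end would add to it.

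The 3′-fragments of 6 of the 7 tRNAs had 2 or more lengths with a common end, and those of n-TSaga9 had 18 nt only. For n-TPtgg2, the 18 nt read from base 58 to 75 had 1514, 1355 and 1328 RPM over 8 starts, among them chr1:167571822, the 17 nt read had 415, 370 and 368 RPM, and the 16 nt read had 83.3, 66.4 and 75.8 RPM. For n-TVcac9 the order of lengths was different. The 17 nt read, from base 60 to 76, was highest, with 1017, 866 and 1024 RPM over 10 starts, among them chr13:22107673, where 17 nt reads were 76.0% of the reads, and the 18 nt and 16 nt reads had 461 ± 33.6 and 299 ± 41.7 RPM. For n-TAagc16, the 18 nt read at chr13:21332871 and 2 other starts had 880, 729 and 716 RPM and the 17 nt read 186, 153 and 140.8 RPM. The 18 nt read was also the highest for n-TGccc7, at 168, 164 and 177 RPM, and for n-TSgct5, at 60.3, 59.1 and 60.3 RPM.

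Fewer short reads came from other parts of tRNAs. The 15 nt read from the first base of n-TSaga9 was an exception, with 238, 278 and 298 RPM over 10 starts, beside 117, 100.8 and 122 RPM of its 18 nt read at the 3′-end. A 14 nt read from the first base of n-TVcac9 had 33.4, 32.7 and 41.7 RPM, and a 14 nt read from base 17 to 30 of n-TPtgg2 had 77.7, 72.1 and 81.6 RPM.

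**Figure D5:**
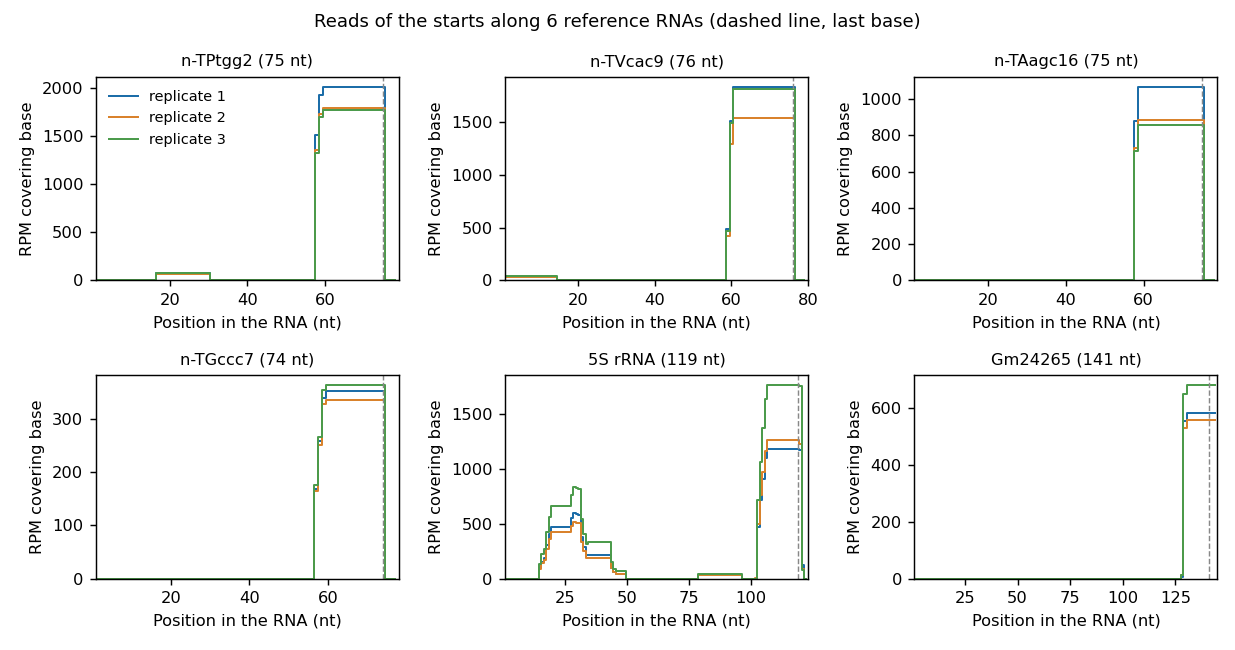
RPM (y axis) of the starts that cover each base (x axis, position in nt) of 4 tRNAs, 5S rRNA and the snRNA Gm24265, all reads of a start being drawn over its most abundant length; lines are the libraries and the dashed line is the last base. All 6 RNAs are covered up to the last base, and 5S rRNA also between bases 15 and 49.

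A read that resembled n-TAagc16 was more abundant than the read that matched it. The exact 18 nt read at chr5:125884634 and 1 other start had 1191, 959 and 932 RPM, and it differed from the end of n-TAagc16 by 1 base, C10T, counted from 1 at the 5′-end of the read and with the base of the tRNA first. Both are shown with this base in capitals.
unnamed read: tccccggcaTctccacca
end of n-TAagc16: tccccggcaCctccacca

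The 17 nt and 16 nt reads of the same end had 258, 213.7 and 209 RPM and 49.98, 41.3 and 44.2 RPM, with the same difference. Since the read was exact and ended in CCA, these 3 bases are in the genome at its loci. In all, 10 starts had an exact leading read that ended in CCA, with 40011 reads.

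Within rRNA, 5S rRNA held 171 starts at 9 combinations of chromosome and strand and summed to 1936, 1941 and 2839 RPM. Replicate 3 was highest. Most starts had reads from base 15 to 49 or at the 3′-end, and 7 starts had reads from base 79 to 96. The 9 starts at base 103 with 1 leading read, among them chr8:126064409, had 435, 464 and 653 RPM in reads of all lengths. The leading read of 18 nt, which ran 1 base past the annotated end of the 119 nt gene, was 38.1% of the reads of that start, and 62.8% of them were 14 to 18 nt. Near the 5′-end, the starts at base 18 with a leading read of 14 nt had 111, 102 and 160 RPM. Of the 171 starts, 63 reached or passed the last base. In the 3′-end family of 46 starts that held this read, reads of 19 nt or more with the same ends were more numerous than the reads of the starts, at 52825 beside 37544.

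The rRNA gene repeat, from which the long precursor of the other cytoplasmic rRNAs is made, held 56 starts at 3 combinations of chromosome and strand with 923, 818 and 856 RPM. The highest was the 14 nt read at chr17:39984725 in Gm42418, with 310, 260 and 282 RPM, 95.9% of it exact. The start chr17:39984684 had 65.1, 66.7 and 71.0 RPM in reads of all lengths, of which 18 nt, the most abundant length, made up 20.6%, and 14 to 18 nt together 44.7%. Around them, 15 starts lay within 140 bases, the most of any place.

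snRNA starts lay at the end of the RNA in 18 of 19 cases, holding 99.6% of the snRNA reads. Gm24265, annotated as an snRNA gene of 141 nt, had 584, 559 and 682 RPM, of which the 16 nt read from base 129, at chr5:115940391 and 1 other start, made up 549, 517 and 636 RPM. It ended 3 bases past the annotated last base. Gm25099 and Gm25313, also snRNA genes, had 66.6, 114 and 142 RPM and 83.0, 73.9 and 120 RPM, both highest in replicate 3.

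snoRNA and scaRNA starts were mostly inside the RNA. Of 61 starts in 26 RNAs, 47 began after the first base and ended before the last, and they were exact in 87.7% of their reads. Snord99, a C/D box snoRNA, which guide the methylation of other RNAs, had the most, 296, 244 and 207 RPM. Its start chr4:131866657 had 188, 153 and 126 RPM in reads of all lengths, of which the most abundant, 17 nt from base 52 to 68, made up 45.9%, and 14 to 18 nt together 56.8%. A 17 nt read of Snord12 at chr2:166890842 had 82.1, 74.96 and 87.6 RPM. Y RNA had 1 start, in Rny1, at 3.65 ± 0.449 RPM, and the 7SL RNA genes Rn7s1 and Rn7s2 had 1 start each, at 3.55 ± 0.355 RPM with the same values.

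miRNA hairpins held 36 starts with 0.3798% ± 0.0396 of the reads, and 34 of them, in 25 hairpins, were named at their own locus. Relative to the arms in the RefSeq table, or to the most abundant 19 to 25 nt read where the table had no arm, 24 starts overlapped an arm by at least 8 nt, 8 lay between the arms and 2 before the first arm. Starts in an arm were low, between 3.50 and 10.8 RPM, and had a median of 0.117% of the short and 19 to 25 nt reads of that arm. The highest share was 59.5% in Mir6236, where the 19 to 25 nt reads had only 5.47 ± 0.233 RPM. The most used 5′-start of these reads was base 58, before the annotated arm at bases 67 to 85. All 24 started 1 to 8 bases after the most used 5′-start of the 19 to 25 nt reads of the arm, and 20 of them ended at their most used 3′-end. All 12 of the let-7 starts did.

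The loop and flank reads were few, and only those of Mir182, Mir21a and Mir328 were above every start in an arm, at 48.5, 14.6 and 11.2 RPM. The other starts between the arms had 3.34 to 9.08 RPM, within or below the range of the starts in an arm. In Mir182, an 18 nt read between the arms at chr6:30115961, from base 32 to 49 of the hairpin, had 54.0, 46.1 and 45.2 RPM, beside 31822, 28588 and 28994 RPM of 19 to 25 nt reads of the hairpin. It began directly after the 5p arm and ended directly before the 3p arm. Such reads in Mir15b and Mir497 had 9.08 ± 1.03 and 5.54 ± 0.625 RPM, and 7 of the 8 starts between the arms began within 1 base of the end of the first arm. In Mir21a, a 17 nt read from base 1, at chr11:86397660, ended directly before the 5p arm and had 12.3, 14.7 and 16.7 RPM, beside 1475 ± 73.5 RPM of the 19 to 25 nt reads. In the 5p arm of Mir99b, the start chr17:17967162 lay 4 bases after the most used start and had 11.9, 9.80 and 10.8 RPM, of which 68.4% were 18 nt reads, beside 31242 ± 4583 RPM of the 19 to 25 nt reads of that arm.

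Several places with many starts matched no reference RNA. The most starts, 14, were at chr17:39983539-39983624 and at chr1:134930537-134930614, both on the plus strand. The place on chromosome 17 lay near that of 15 starts in Gm42418, at chr17:39984684-39984823 on the same strand. Its starts are not among the 56 given for the rRNA gene repeat, and whether they belong to it was not tested. In the place on chromosome 1, of 78 bases, the first 3 bases each held a start, and the bases 14 to 19 held 6 starts. The highest of these was the 16 nt read at chr1:134930551 with 175, 167 and 174 RPM. The last 5 starts, at bases 61 to 65, all ended at base 78 with lengths from 18 to 14 nt. Of these, the 17 nt read had 160, 126 and 128 RPM, and all 5 were aligned in the second stage without a mismatch at 6 loci. Similar places of 78 or 79 bases on chromosomes 1, 11, 13 and 19 held 12 or 13 starts each.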

How the data were processed

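Small RNA-seq of 3 MIN6 libraries was analysed from alignments. Per the paper's methods, the authors trimmed adaptors with cutadapt, aligned reads without mismatches with Bowtie and aligned the remaining reads with SHRiMP2, with mismatches, to windows around the placed reads. The submitters' processing notes name the build mm9. The deposited values are expected counts, in which the authors shared a read out over its equally good loci. The values are not normalized, so RPM was computed here over all mapped reads. Exact alignments end 1 base early in the files and were corrected. Aligned reads were 14 to 41 nt long, so shorter fragments were not measured.

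No genome of that build was used here, so names came from bases not excluded by mismatches, matched to GRCm38 sequences at 28 bits around a locus (60 bases before to 80 after) or 23 bits of a read, with up to 3 bases past an RNA. The last 3 bases of second-stage reads gave no information. The 23 bits were set after values were seen. Naming was tested on simulated exact reads, and not on second-stage reads. Intervals are 95% Wilson intervals. They cover counting error only, since reads carry no molecular identifiers. Named reads are the 10 with the most reads, identical copies counted once, and the 3 with the most in each kind of locus and at each length. The starts and the lists were chosen with earlier results of these data known. No test was made, because the libraries share 1 condition and the rule used their reads. The libraries are biological replicates per the paper. Alternatives were other read minimums, exact or single-locus reads, other length ranges, a stricter match and leaving out each replicate. Python 3.11.15, numpy 2.4.6, pandas 2.3.3 and matplotlib 3.10.9 were used.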

Additional observations from a re-analysis of the deposited data

Results flagged for a closer look

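On chrM, which the rule for the starts left out, 19 of 147 starts with at least 100 reads had mostly 14 to 18 nt reads. They held 191, 162 and 196 RPM, above the limit that a count of 0 allows, and were not part of any comparison above.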

How the results depend on the processing

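No paired analysis was possible because the libraries analysed here share 1 condition. The number of starts was 3701 with a minimum of 50 reads, 1280 with 200 reads, 1058 with exact alignments only, 430 with single-locus reads only and 1298 with lengths of 15 to 17 nt. The share of mapped reads was 2.41% with exact alignments only, 1.13% with single-locus reads and 5.02% at 15 to 17 nt. The share of reads at starts of 15 or 17 nt was 36.2% with exact alignments, 34.8% with single-locus reads and 61.0% without the correction of exact alignments, and, chosen after seeing the data, 38.8% without family 1, 40.5% without families 1 and 2 and 41.7% without the 10 families with the most reads. The share of starts at these lengths was 45.6% with single-locus reads. The share of starts that shared their leading read was 63.1% with 50 reads, 77.6% with 200 reads and 67.9% with exact alignments. The share that ended at the base of another was 54.4% with 50 reads, 48.9% with exact alignments and 38.4% with single-locus reads. The share of reads at named starts was 15.8% with 50 reads, 14.5% with single-locus reads and 11.6% with the stricter match, and the share of starts named was 24.1% with 200 reads and 17.98% with the stricter match. The causes were not tested, apart from the fewer reads or starts that each setting admits. The other 17 values from settings that kept all replicates were counted as unchanged. The shares among them moved by less than the spread or the counting interval, and the number of starts was judged by a fixed fold instead. Beside 2108, it was 2069 without the correction of exact alignments, 1919 with 14 to 18 nt in every library and 2127 with chrM.

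When 1 replicate was left out, the minimum of reads was lowered in proportion to the number of libraries, so these counts are not at the minimum of 100. Without 1 replicate, the number of starts was 2074 to 2188, the share of mapped reads 6.70% to 7.09%, the share of reads at starts of 15 or 17 nt 54.6% to 56.8%, the share of starts at these lengths 41.5% to 42.2%, the share that shared the leading read 70.3% to 72.3%, the share that ended together 56.0% to 56.5%, the share of reads at named starts 15.3% to 15.6% and the share of starts named 21.7% to 22.96%.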
